A study of Mus musculus with 14 samples.

Results

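The voltage-gated potassium, sodium and calcium channel genes were examined in brain hemispheres of Cort+/+ and Cort-/- mice after ischemic stroke. Members were taken by symbol alone, as every gene listed as Kcna, Kcnb, Kcnc, Kcnd, Kcnh, Kcnq, Kcns or Kcnv with a number, Scn with a number and the letter a, or Cacna1 and Cacna2d with their letter or number. This rule found 59 of the 46904 genes of the expression table, 35 for potassium, 10 for sodium and 14 for calcium channels, and it used no measured value. All 59 had reads in 2 or more libraries and entered the test, 46 of them averaged 1 RPKM or more over all libraries and 13 less. RPKM normalises a gene's reads for its length and for the size of the library.

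RNA came from whole hemispheres of 12-week-old mice on a C57BL/6J background, 48 h after a mild transient occlusion of the middle cerebral artery (MCAO) that lasted 20 min. Each comparison sets the ischemic (MCAO) hemisphere against the contralateral (CL) hemisphere of operated mice, so no group comes from unoperated animals. Cort+/+ mice are the wild type, and Cort-/- mice lack cortistatin, a neuropeptide related to somatostatin, in every cell from the germline on. Of the 14 libraries, 3 are from Cort+/+ CL, 3 from Cort+/+ MCAO (replicates numbered 2, 3 and 4), 3 from Cort-/- CL and 5 from Cort-/- MCAO hemispheres. The study describes them as independent biological replicates, and the labels do not say whether a CL and an MCAO library came from the same mouse. It gives 5 replicates for MCAO. It also states that, where variability was large, replicates that did not group clearly were left out. Whether the 3 Cort+/+ MCAO libraries were selected in this way is not given.

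Voltage-gated channels open when the membrane potential shifts. Sodium channels carry the rising phase of the action potential, potassium channels repolarize the membrane and set how readily it fires again, and calcium channels couple firing to transmitter release, gene expression and, when calcium overloads the cell, to injury. Most are assembled from pore-forming alpha subunits and auxiliary subunits that change their gating or their delivery to the surface. Neurons are their main site in the brain, and ischemia is known for depolarizing neurons and disturbing the gradients on which these channels act.

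A feature that the symbols do not use is the potassium selectivity filter, a stretch of 5 codons in the pore loop that lets potassium pass and holds sodium back. It was searched for in the coding sequence of the canonical GENCODE transcript of each member as threonine or serine, then valine, isoleucine or leucine, then glycine, then tyrosine or phenylalanine, then glycine. All 35 potassium channel genes held it and none of the 24 sodium and calcium channel genes did. The filter is shown for Kcnd2, whose difference between hemispheres passed the test, and for its close relative Kcnd3, which did not pass, on the coding strand of GRCm39 from 5 codons before to 5 codons after it, with its codons in capitals.
Kcnd2: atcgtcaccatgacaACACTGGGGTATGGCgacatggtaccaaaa
Kcnd3: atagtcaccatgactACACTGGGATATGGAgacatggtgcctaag
The stretch of Kcnd2 (chr6:21217390-21714155, plus strand) is split between exons 1 and 2, and that of Kcnd3 (chr3:105367215-105565948, plus strand) between exons 2 and 3. The filter starts at codon 370 of 630 in Kcnd2 and at codon 367 of 636 in Kcnd3, and 38 of the 45 bases shown are the same in both, 13 of the 15 of the filter among them.

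Whole reads could be recovered from the RPKM values, and the libraries held 25989676 to 43032300 reads on genes, both extremes in Cort-/- MCAO. Cort, the targeted gene, was at 2.61 to 5.68 RPKM in the 6 Cort+/+ libraries and at 0 to 0.136 RPKM in the 8 Cort-/- libraries, so no library went against its genotype. Along the first principal component of all genes that average 1 RPKM or more, Cort+/+ MCAO replicate 4 and Cort-/- MCAO replicate 3 lay nearest to the CL libraries.

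In the hemispheres, the channel families differed widely in level. Sodium channel alpha subunits (Nav) took 14.7% of the summed RPKM of all 59 genes, Kv7 (Kcnq) 13.8%, Kv3 (Kcnc) 12.8%, Kv1 (Kcna) 11.8% and Kv10-12 (Kcnh) 10.6%. High-voltage-activated Cav2 channels took 8.78%, alpha2delta subunits 8.33%, T-type Cav3 channels 5.04%, Kv4 (Kcnd) 4.79%, the electrically silent Kcns and Kcnv subunits 3.43% and L-type Cav1 channels 1.96%. Between libraries the share of Nav ranged from 13.8% to 15.1% and that of Kv7 from 13.3% to 14.4%, while the silent subunits ranged from 2.98% to 4.005% and Cav3 from 4.44% to 5.76%.

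Among the genes reported here, the axonal sodium channel Scn2a had the highest mean (40.5 RPKM), followed by Kcnh3 of the Kv12 group (36.8 RPKM) and the sodium channel of nodes and initial segments Scn8a (33.3 RPKM). In other families the axonal Kcna2 reached 31.2 RPKM, R-type Cacna1e 26.0 RPKM, the alpha2delta subunit Cacna2d3 24.5 RPKM, the dendritic A-type channel Kcnd2 18.1 RPKM, T-type Cacna1g 14.2 RPKM, the silent Kcnv1 12.4 RPKM and L-type Cacna1c 7.98 RPKM.

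The 13 genes under 1 RPKM were Kcna7, Kcna10, Kcnq1, Kcnh8, Kcnv2, Scn4a, Scn7a, Scn9a, Scn10a, Scn11a, Cacna1f, Cacna1s and Cacna2d4, among them channels best known from muscle, heart, retina or sensory neurons. Their means ran from 0.00515 (Kcna7) to 0.759 RPKM (Scn9a), and none was called in any comparison. Kcna7, Kcnv2 and the skeletal muscle channel Scn4a had at most 2, 3 and 9 reads in any library, so a difference between groups was not detectable at this depth. Scn10a, a channel of sensory neurons, ranged from 0.0646 to 0.743 RPKM within Cort+/+ CL alone, and no difference in it passed the test.

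**Figure D1:**
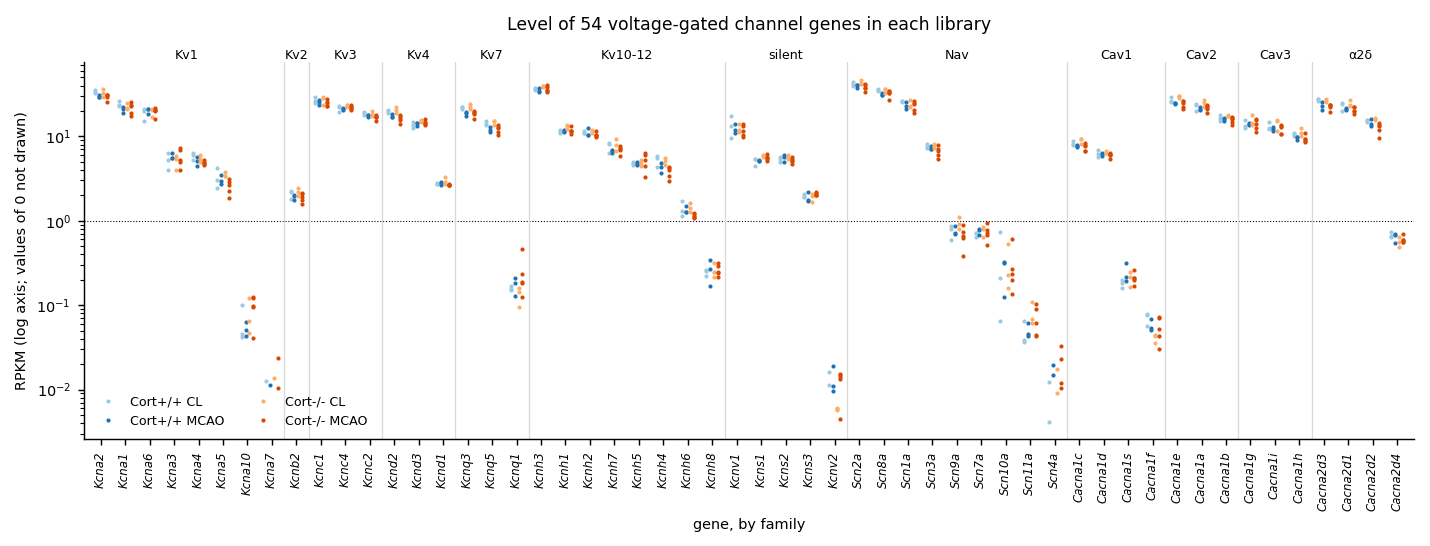
Level of 54 channel genes in RPKM (log axis), grouped by family and ordered by mean within it; each point is a library, coloured by genotype and hemisphere, and the dotted line marks 1 RPKM. Scn2a stands highest with a mean of 40.5 RPKM, the 13 genes that average less than 1 RPKM lie below the dotted line or cross it, and the 4 groups of a gene mostly overlap.

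The question of the first comparisons is how channel expression in the ischemic hemisphere compares with the contralateral one. Channel genes were mostly lower in MCAO hemispheres, by small amounts. Of the 46 genes that average 1 RPKM or more, 38 were lower in Cort+/+ mice, with a median log2FC of −0.09, and 42 were lower in Cort-/- mice, with a median of −0.16. Over all 15063 genes at that level the medians were −0.02 and −0.03, with 55.3% and 59.2% of genes lower. Averaged over both genotypes, 42 of the 46 were lower (median −0.14), against 58.5% of all genes (median −0.03). Under the 24 alternative settings, other scalings and the models without 1 library included, 33 to 39 were lower in Cort+/+, 39 to 45 in Cort-/- and, in the 23 that apply, 40 to 43 over both. Since RNA of whole hemispheres was sequenced, fewer neurons and less RNA per neuron cannot be told apart.

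With the limma test across all genes, 0 channel genes were differentially expressed between MCAO and CL hemispheres in Cort+/+ mice, where 0.0108% of all genes tested were called. With only 5 of 46102 genes called in this group, a count of 0 does not set the channel genes apart. The study, with another test, reports more differentially expressed genes in both genotypes. It lists channel activities among the functions lowered only in Cort-/- mice. An unadjusted p under 0.05 was found for 6 of the 46 genes that average 1 RPKM or more, all lower, and for 12.1% of all genes at that level in either direction. The members' count is near this share, which pools both directions. A share for lower genes alone was not computed. In Cort-/- mice, 1 of 59 was called, Kcnd2, against 1.72% of all genes (1.03% when only lower calls among genes that average 1 RPKM or more are counted), and 22 of the 46 had an unadjusted p under 0.05, again all lower, against 24.6% of all genes at that level in either direction. Averaged over both genotypes, 4 were called, all lower in MCAO: Kcnq3, Kcnd2, Cacna2d3 and Kcnq5. They are 4 of the 46 genes at that level, where 2.5% of all genes were called lower, and 3.43% of all genes tested were called in either direction. No channel gene was called higher in any comparison.

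Without regard to a test, every MCAO library was below every CL library for 14 of the 46 genes in Cort+/+ mice, against 7.29% of all genes at that level, and for 11 of 46 in Cort-/- mice, against 9.43%. Cacna1e, Cacna2d3, Kcnd2 and Kcnq3 were separated in this way in both genotypes. These counts describe genes that share libraries and are not independent of each other.

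Kcnq3, a subunit of the M-current that holds neurons back from repeated firing (chromosome 15, 65858236 to 66158491, GRCm39), gave 21.1, 22.5 and 22.3 RPKM in CL and 17.3, 19.02 and 19.5 RPKM in MCAO hemispheres of Cort+/+ mice. It was at 24.3, 21.1 and 22.5 RPKM in CL and 15.98, 19.4, 19.9, 18.9 and 18.3 RPKM in MCAO hemispheres of Cort-/- mice. In both genotypes each MCAO library was lower than each CL library. Averaged over genotypes it fell (log2FC −0.27, SE 0.053, adjusted p = 0.0152), with −0.24 in Cort+/+ (adjusted p = 0.394) and −0.29 in Cort-/- mice (adjusted p = 0.0607). It was called in each of the 14 models that left out 1 library, with adjusted p-values of 0.0107 to 0.0467. Values are listed by replicate number here and throughout.

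Kcnq5 (chromosome 1, 21468627 to 22032166), another M-current subunit, had 15.04, 13.6 and 14.02 RPKM in CL and 11.4, 11.9 and 12.8 RPKM in MCAO hemispheres of Cort+/+ mice. The corresponding levels were 15.2, 15.1 and 13.6 RPKM in CL and 10.4, 13.04, 12.6, 13.7 and 11.2 RPKM in MCAO hemispheres of Cort-/- mice. The Cort+/+ groups did not overlap, while in Cort-/- mice MCAO replicate 4 lay above CL replicate 3. It was called over both genotypes (log2FC −0.26, SE 0.062, adjusted p = 0.0404) and in neither alone (adjusted p = 0.513 and 0.139). With 1 library left out its adjusted p ranged from 0.0254 to 0.108, and it was not called without Cort+/+ CL replicates 1, 2 or 3, Cort+/+ MCAO 2 or 3, Cort-/- CL 1 or 2, or Cort-/- MCAO 5. Kcnq1, the pore-forming subunit of the heart's slow potassium current, was at 0.185 RPKM with 10 to 59 reads a library and was not called.

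Kcnd2 (chromosome 6, 21214866 to 21729804), which carries the A-type current of dendrites, gave 18.7, 19.99 and 20.4 RPKM in CL and 16.8, 16.9 and 18.2 RPKM in MCAO hemispheres of Cort+/+ mice. It was at 22.1, 18.8 and 20.3 RPKM in CL and 15.6, 17.3, 17.95, 14.1 and 16.3 RPKM in MCAO hemispheres of Cort-/- mice. Every MCAO library was below every CL library of its genotype. It fell in Cort-/- mice (log2FC −0.33, SE 0.075, adjusted p = 0.0473) and over both genotypes (log2FC −0.26, SE 0.056, adjusted p = 0.0247), and had −0.19 in Cort+/+ mice (adjusted p = 0.617). Of the 14 models that left out 1 library, only that without Cort-/- MCAO replicate 3 kept the call in Cort-/- mice, with adjusted p-values from 0.0215 (without that library) to 0.215 (without Cort-/- CL replicate 1). Over both genotypes the range was 0.0124 to 0.07, and the call was lost without Cort+/+ CL replicates 2 or 3, Cort+/+ MCAO 2 or 3, or Cort-/- CL 1 or 3.

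Kcnd3, its close relative, had 12.6, 13.7 and 14.6 RPKM in CL and 13.3, 14.4 and 14.6 RPKM in MCAO hemispheres of Cort+/+ mice. Levels were 14.6, 15.3 and 15.4 RPKM in CL and 13.5, 14.4, 16.3, 13.8 and 14.8 RPKM in MCAO hemispheres of Cort-/- mice. Here CL and MCAO values overlapped in both genotypes, and the averaged log2FC was −0.0022 (95% interval −0.11 to 0.10). An antisense gene, Kcnd3os, overlaps the start of Kcnd3 in the annotation, and whether the reads were counted by strand is not given in the sources used here. Kcnd1 averaged 2.76 RPKM (log2FC −0.07, adjusted p = 0.567).

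Cacna2d3 (chromosome 14, 28626892 to 29444600), an auxiliary subunit that helps calcium channels to the membrane, gave 27.9, 27.9 and 25.9 RPKM in CL and 22.8, 20.7 and 25.5 RPKM in MCAO hemispheres of Cort+/+ mice. It was at 27.95, 25.6 and 27.05 RPKM in CL and 19.2, 23.3, 23.4, 22.1 and 23.5 RPKM in MCAO hemispheres of Cort-/- mice. No MCAO library reached the lowest CL library of its genotype. It fell over both genotypes (log2FC −0.26, SE 0.057, adjusted p = 0.0250), with log2FC of −0.25 in Cort+/+ and −0.27 in Cort-/- mice, neither of which passed alone (adjusted p = 0.419 and 0.102). With 1 library left out the adjusted p over both ranged from 0.00971 to 0.0705, and the call was lost without Cort+/+ CL replicate 2, Cort+/+ MCAO 2 or 3, or Cort-/- CL 1 or 3.

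**Figure D2:**
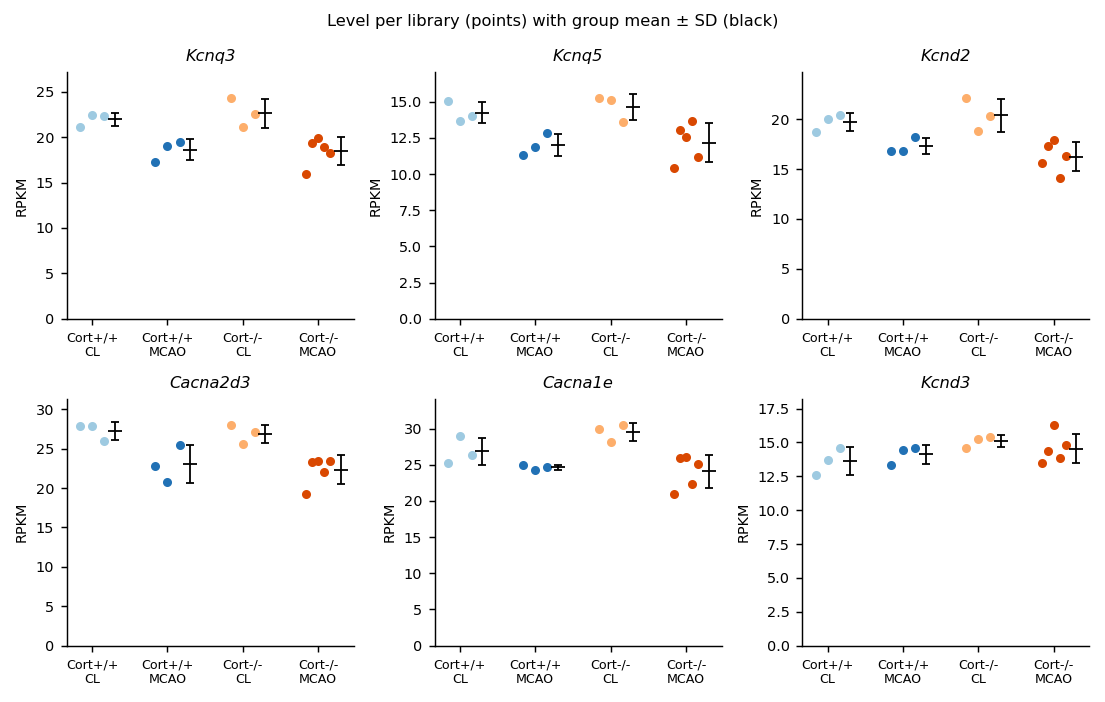
Level in RPKM of Kcnq3, Kcnq5, Kcnd2, Cacna2d3, Cacna1e and Kcnd3 in each library (points) of the 4 groups, with the group mean ± SD in black; axes start at 0. For Kcnq3, Kcnd2, Cacna2d3 and Cacna1e the MCAO points of each genotype lie below its CL points, by −0.27, −0.26, −0.26 and −0.21 on the log2 scale over both genotypes, while those of Kcnd3 overlap.

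None of the other potassium channel families had a called member, in either genotype or over both. They hold 6 Kv1, 2 Kv2, 4 Kv3, 7 Kv10-12 and 4 silent subunit genes that average 1 RPKM or more. Kcna2 had 33.2, 35.8 and 32.5 RPKM in CL and 29.1, 28.96 and 31.1 RPKM in MCAO hemispheres of Cort+/+ mice. Its levels were 36.7, 29.3 and 32.9 RPKM in CL and 25.7, 30.9, 30.9, 30.6 and 29.6 RPKM in MCAO hemispheres of Cort-/- mice. Cort+/+ groups were apart and Cort-/- groups overlapped (over both genotypes log2FC −0.17, SE 0.057, adjusted p = 0.143). Kcna3, a channel also made by lymphocytes and microglia, and Kcna6 were the Kv1 members averaging 1 RPKM or more with a positive averaged log2FC (0.16 and 0.06, adjusted p = 0.690 and 0.832). The axonal Kcna1, Kcna4 and Kcna5 were lower, with −0.14, −0.19 and −0.25 (adjusted p = 0.508, 0.189 and 0.405).

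The delayed rectifier Kcnb2 had an averaged log2FC of −0.16 (adjusted p = 0.437). Of the Kv3 channels, which allow firing at high rates, Kcnc1, Kcnc2 and Kcnc4 had averaged log2FC of −0.10, −0.13 and −0.05.

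Kcnh3, a forebrain channel of the Kv12 group, was at 37.1, 36.2 and 35.3 RPKM in CL and 33.8, 37.02 and 34.1 RPKM in MCAO hemispheres of Cort+/+ mice. It had 39.9, 39.1 and 38.6 RPKM in CL and 34.2, 38.7, 33.7, 40.8 and 35.9 RPKM in MCAO hemispheres of Cort-/- mice. The groups overlapped in both genotypes (log2FC −0.08, SE 0.045, adjusted p = 0.491 over both). Kcnh4, of the same group, had the most negative averaged log2FC of the 46 genes, at −0.35 (SE 0.10, adjusted p = 0.0895), from 5.24 ± 0.813 to 4.28 ± 0.542 RPKM in Cort+/+ (SD, n = 3 each) and from 5.03 ± 0.479 (SD, n = 3) to 3.75 ± 0.582 RPKM (SD, n = 5) in Cort-/- mice. The erg channels Kcnh2, Kcnh6 and Kcnh7 had averaged log2FC of −0.09, −0.17 and −0.19, and the ether-a-go-go channels Kcnh1 and Kcnh5 −0.06 and 0.02, with adjusted p-values from 0.329 to 0.981.

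Kcnv1, which joins Kv2 channels without forming a pore of its own, gave 9.58, 13.4 and 17.5 RPKM in CL and 11.8, 11.01 and 14.1 RPKM in MCAO hemispheres of Cort+/+ mice. It was at 14.1, 11.96 and 11.3 RPKM in CL and 10.3, 13.4, 14.1, 11.6 and 9.76 RPKM in MCAO hemispheres of Cort-/- mice. Its CL libraries alone spanned 9.58 to 17.5 RPKM in Cort+/+ mice, and it was not called (log2FC −0.09, SE 0.13, adjusted p = 0.844). The silent subunits Kcns1, Kcns2 and Kcns3 had −0.02, −0.04 and 0.03 (adjusted p = 0.917, 0.8501 and 0.918).

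Sodium channel alpha subunits were lower in MCAO hemispheres for 4 of the 5 genes averaging 1 RPKM or more in Cort+/+ and for all 5 in Cort-/- mice, and none was called. Scn2a had 39.97, 43.8 and 41.3 RPKM in CL and 37.1, 40.03 and 40.5 RPKM in MCAO hemispheres of Cort+/+ mice. It was at 47.1, 42.9 and 41.5 RPKM in CL and 33.8, 42.1, 40.6, 37.7 and 37.8 RPKM in MCAO hemispheres of Cort-/- mice. Groups overlapped in both genotypes (log2FC −0.14, SE 0.051, adjusted p = 0.193 over both). Scn8a went from 35.1 ± 1.02 to 31.6 ± 0.994 RPKM in Cort+/+ (SD, n = 3 each) and from 35.1 ± 2.25 (SD, n = 3) to 32.1 ± 2.86 RPKM (SD, n = 5) in Cort-/- mice (averaged log2FC −0.14, adjusted p = 0.193). For Scn1a, the main sodium channel of inhibitory interneurons, and Scn3a, prominent before birth, the averaged log2FC was −0.12 and −0.15 (adjusted p = 0.518 and 0.394).

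Calcium channel genes averaging 1 RPKM or more were lower in 10 of 11 cases in Cort+/+ and in all 11 in Cort-/- mice, with medians of −0.10 and −0.24. Cacna1e, the pore of R-type channels (chromosome 1, 154266477 to 154760247), had 25.2, 28.9 and 26.4 RPKM in CL and 24.96, 24.3 and 24.7 RPKM in MCAO hemispheres of Cort+/+ mice. It was at 29.95, 28.1 and 30.4 RPKM in CL and 20.96, 25.99, 26.01, 22.4 and 25.2 RPKM in MCAO hemispheres of Cort-/- mice. The groups were apart in both genotypes, yet the adjusted p stayed just above the threshold (log2FC −0.30, SE 0.072, adjusted p = 0.0617 in Cort-/- mice and log2FC −0.21, SE 0.054, adjusted p = 0.0566 over both). The P/Q-type Cacna1a and N-type Cacna1b, which drive transmitter release, both had an averaged log2FC of −0.12 (adjusted p = 0.362 and 0.323).

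Cacna1c, the main L-type channel of brain and heart, showed 8.08, 8.71 and 7.81 RPKM in CL and 7.72, 7.52 and 7.997 RPKM in MCAO hemispheres of Cort+/+ mice. It was at 9.21, 8.02 and 9.27 RPKM in CL and 6.703, 7.97, 8.39, 6.63 and 7.63 RPKM in MCAO hemispheres of Cort-/- mice. CL and MCAO values overlapped in both (log2FC −0.16, SE 0.061, adjusted p = 0.213 over both). Cacna1g, a T-type channel of thalamic neurons, had 12.4, 15.6 and 13.1 RPKM in CL and 14.1, 13.6 and 14.3 RPKM in MCAO hemispheres of Cort+/+ mice. It was at 14.3, 13.6 and 18.02 RPKM in CL and 12.5, 14.2, 15.7, 11.2 and 15.8 RPKM in MCAO hemispheres of Cort-/- mice. CL replicate 3 of Cort-/- mice was the highest library, and the averaged log2FC was −0.05 (adjusted p = 0.868). The other T-type genes, Cacna1h and Cacna1i, had −0.20 and −0.16, and the L-type Cacna1d had −0.06 (adjusted p = 0.121, 0.390 and 0.640). The alpha2delta genes Cacna2d1 and Cacna2d2, both targets of gabapentin, had log2FC of −0.26 and −0.37 in Cort-/- mice, where each MCAO library was below each CL library, and of −0.12 and −0.10 in Cort+/+ mice, with adjusted p-values of 0.140 and 0.163 over both.

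**Figure D3:**
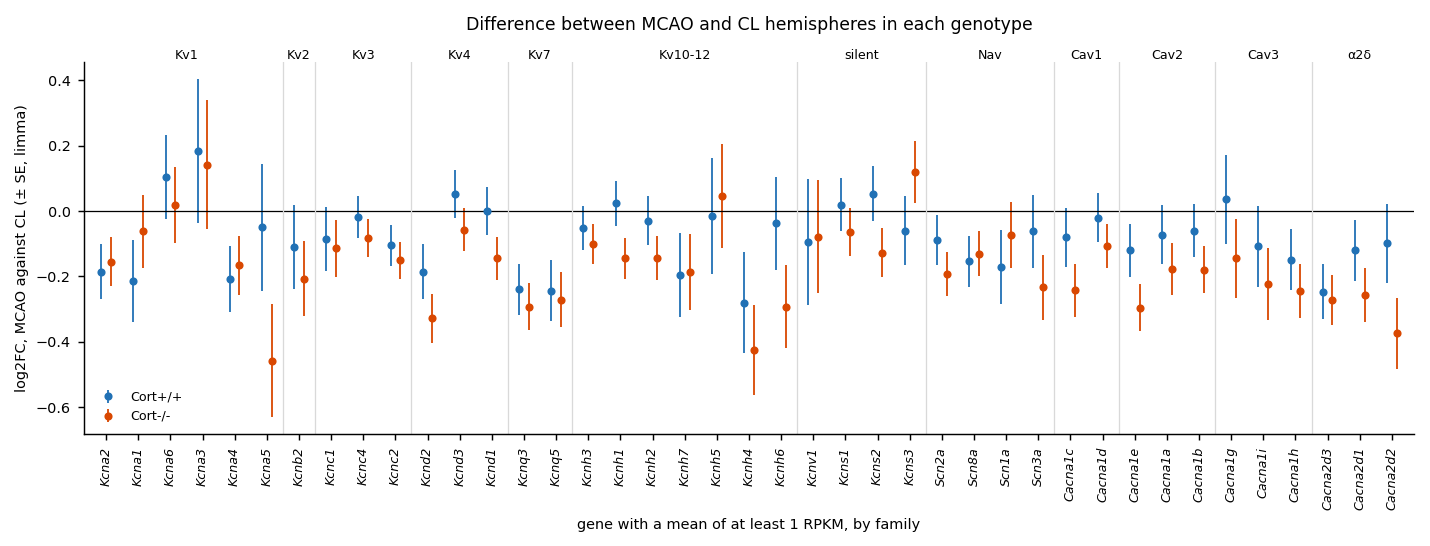
Difference between MCAO and CL hemispheres as log2FC with its standard error (limma, y axis) for 41 of the channel genes that average 1 RPKM or more (x axis, by family), in Cort+/+ (blue) and Cort-/- mice (orange). Points lie below 0 for 34 of the genes shown in Cort+/+ and 37 in Cort-/- mice, most of them between 0 and −0.30.

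Summed over its members, every family had a lower mean RPKM in MCAO than in CL hemispheres of both genotypes, also after TPM or median ratio scaling of the libraries. All 59 genes together went from 765 ± 31.2 to 709 ± 19.6 RPKM in Cort+/+ mice (SD, n = 3 each, a difference of −7.41%) and from 789 ± 43.4 (SD, n = 3) to 704 ± 47.6 RPKM (SD, n = 5, −10.8%) in Cort-/- mice. Cort+/+ sums did not overlap (734.9 to 797 in CL, 695 to 731 in MCAO), and Cort-/- sums did (739.7 to 822 in CL, 631 to 747 in MCAO). The alpha2delta sum had the most negative difference of the 12 families in both genotypes (−10.8% and −17.8%). The Kv7 sum differed by −9.58% and −13.8%, and the Cav2 sum by −6.16% and −14.4%. Potassium, sodium and calcium channels differed by −7.30%, −7.97% and −7.32% in Cort+/+ and by −9.19%, −10.1% and −15.1% in Cort-/- mice. These sums were not tested.

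**Figure D4:**
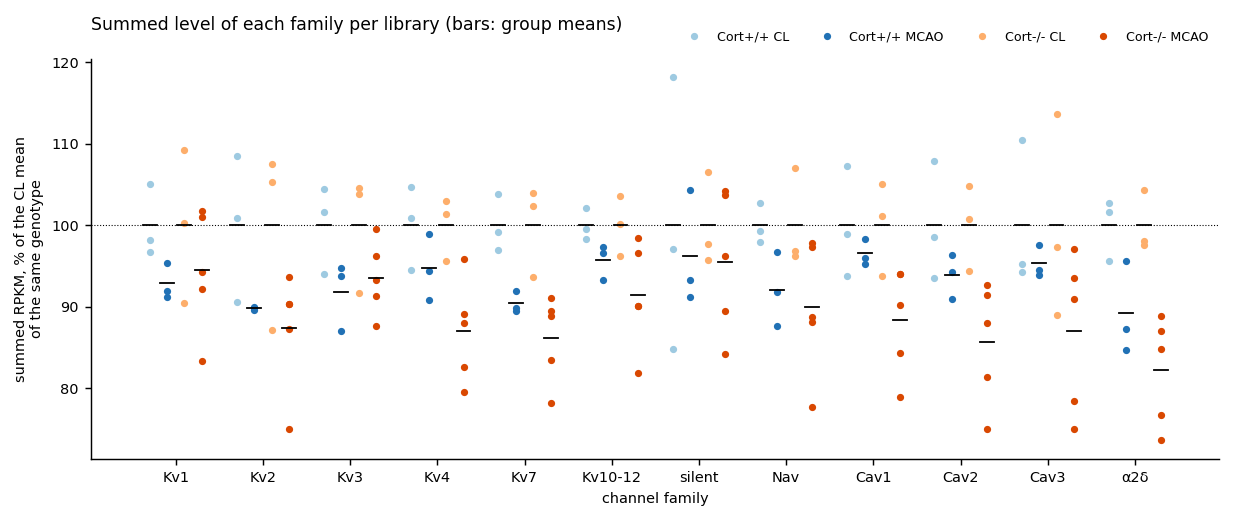
Summed RPKM of each channel family in each library, as a percentage of the CL mean of the same genotype (y axis), by family (x axis) and group (colour); black bars are group means and the dotted line marks 100%. MCAO means lie below 100% in all 12 families, down to a change of −17.8% for alpha2delta subunits in Cort-/- mice, and single libraries of both hemispheres overlap in many families.

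The symbol rule took in the alpha2delta subunits and left out other auxiliary subunits. These were looked at as a list of 40 genes (19 for potassium, 9 for sodium and 12 for calcium channels), which also holds the Kcnf and Kcng genes and Ank3. In MCAO hemispheres 30 were lower in Cort+/+ mice and 32 in Cort-/- mice, with medians of −0.11 and −0.13. Over all genes that average 1 RPKM or more, 55.3% and 59.2% were lower. In Cort+/+ mice 0 of the 40 were called, in Cort-/- mice 3 and over both genotypes 4, all lower. Among all genes tested, 0.0108%, 1.72% and 3.43% were called in either direction. Scn4b, the beta subunit abundant in striatal neurons, had the largest difference, from 62.9, 58.5 and 57.6 to 29.3, 22.6 and 46.2 RPKM in Cort+/+ and from 59.8, 47.7 and 51.04 to 20.8, 26.6, 33.7, 28.1 and 28.2 RPKM in Cort-/- mice (log2FC −0.94, SE 0.14, adjusted p = 0.00405 over both, and log2FC −0.95, SE 0.19, adjusted p = 0.0277 in Cort-/- mice). Each MCAO library was below each CL library, and Cort+/+ MCAO replicate 4 was nearest to CL. Over both genotypes it was called in all 14 models that left out 1 library, and in Cort-/- mice in 8 of them.

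Kcnab1, a cytoplasmic beta subunit of Kv1 channels, gave 29.6, 28.4 and 33.2 RPKM in CL and 21.5, 20.5 and 26.4 RPKM in MCAO hemispheres of Cort+/+ mice. The Cort-/- libraries held 28.8, 28.5 and 26.7 RPKM in CL and 18.6, 20.7, 22.6, 21.1 and 19.7 RPKM in MCAO hemispheres. It fell over both genotypes (log2FC −0.43, SE 0.063, adjusted p = 0.00341) and in Cort-/- mice (log2FC −0.45, SE 0.084, adjusted p = 0.0222), with no overlap between hemispheres. These calls held in 14 and in 9 of the 14 models without 1 library. In Cort+/+ mice Kcnab1 and Scn4b were both called without Cort+/+ MCAO replicate 4, and Scn4b also with voom on recovered reads. The study, with another test, lists both genes as lower after MCAO in both genotypes. Kcnip2, a calcium-binding partner of Kv4 channels such as Kcnd2, fell over both genotypes (log2FC −0.31, SE 0.067, adjusted p = 0.0230), from 54.8, 52.9 and 51.97 to 49.3, 36.1 and 46.2 RPKM in Cort+/+ and from 49.8, 49.5 and 53.4 to 35.9, 41.99, 43.8, 38.2 and 42.3 RPKM in Cort-/- mice, again with no overlap. It was lost only without Cort-/- CL replicate 1 or 3, with an adjusted p up to 0.0635.

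The beta subunit of calcium channels Cacnb2 fell over both genotypes (log2FC −0.25, SE 0.062, adjusted p = 0.0465). Its Cort+/+ libraries held 13.9, 10.8 and 12.2 RPKM in CL and 9.55, 10.3 and 11.6 RPKM in MCAO, and its Cort-/- libraries 12.2, 12.8 and 11.2 and 9.59, 10.4, 10.5, 9.83 and 9.39 RPKM. Cort+/+ MCAO replicate 4 lay within the CL range, and the call held in only 3 of the 14 models without 1 library (without Cort+/+ CL 2, Cort+/+ MCAO 4 or Cort-/- MCAO 3), with an adjusted p up to 0.123. The sodium channel beta subunit Scn3b fell in Cort-/- mice (log2FC −0.35, SE 0.079, adjusted p = 0.0427), where levels were 34.9, 35.6 and 36.6 RPKM in CL and 25.8, 29.01, 31.2, 23.9 and 30.5 RPKM in MCAO, and had 32.1, 34.7 and 34.3 and 32.2, 29.2 and 32.6 RPKM in Cort+/+ mice (log2FC −0.23, SE 0.059, adjusted p = 0.0537 over both). That call held without Cort-/- MCAO 3, Cort+/+ MCAO 3 or Cort+/+ MCAO 4, and was lost without each of the other libraries (adjusted p up to 0.158).

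Markers of cell types differed between the hemispheres as well. The 9 markers of striatal medium spiny neurons were all lower in both genotypes (median log2FC −0.69 and −0.82), with 0 called in Cort+/+, 6 in Cort-/- and 9 over both. Of all genes tested, 0.0108%, 1.72% and 3.43% were called in these comparisons. In Cort+/+ mice 8 of the 9 had an unadjusted limma p under 0.05. This held for 12.1% of all genes that average 1 RPKM or more, in either direction. The summed level of these 9 markers ranged from 429 to 478 RPKM in Cort+/+ CL, 245 to 400.1 in Cort+/+ MCAO, 425 to 450 in Cort-/- CL and 206 to 318 in Cort-/- MCAO libraries. Of the 10 neuron markers 0 were called, with a median of −0.11 in each genotype and sums of 2209 to 2670.04, 1995 to 2320.48, 2249.51 to 2353 and 2005 to 2173 RPKM in the same order. The 7 microglia and macrophage markers were all higher (medians 0.69 and 0.70, 6 called over both), with sums of 55.4 to 60.4, 78.4 to 121, 55.7 to 64.8 and 87.7 to 143 RPKM. Summed astrocyte markers (6 genes) differed by 25.2% and 32.7% in Cort+/+ and Cort-/- mice, endothelial markers (5) by 11.4% and 44.3%, pericyte and smooth muscle markers (5) by 6.91% and 22.0%, oligodendrocyte markers (6) by −9.21% and 0.951%, their precursors (2) by 8.46% and 4.33%, and choroid plexus markers (4) by 0.312% and 4.16%. The endothelial sums started from unlike CL levels, 32.8 to 34.5 RPKM in Cort+/+ and 25.1 to 28.7 RPKM in Cort-/- libraries. Their MCAO means were 37.3 and 39.6 RPKM. None of the list sums shows the direction of single markers. Over both genotypes 2 of the 6 astrocyte markers were lower (median log2FC 0.21, highest 1.84). Of the 5 pericyte and smooth muscle markers 3 were lower (median −0.02, highest 1.32), and of the 6 oligodendrocyte markers 3. No marker of these lists was at 0 in any group mean. The part of these cell types in the channel differences was not tested.

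Library by library, the median log2 difference of the 46 channel genes from the CL mean of the genotype was −0.10, −0.13 and −0.06 in Cort+/+ MCAO replicates 2, 3 and 4. In Cort-/- MCAO replicates 1 to 5 it was −0.34, −0.09, −0.08, −0.19 and −0.15. The spiny neuron markers stood at −0.76, −1.05 and −0.29 and at −1.33, −0.84, −0.60, −0.94 and −0.61 in the same libraries. Cort-/- MCAO replicate 1 was lowest in both, and Cort+/+ MCAO replicate 4 was nearest to 0 in both. Among the CL libraries the channel median lay between −0.07 (Cort-/- replicate 2, with 40 of 46 genes below the CL mean) and 0.06 (Cort-/- replicate 1).

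**Figure D5:**
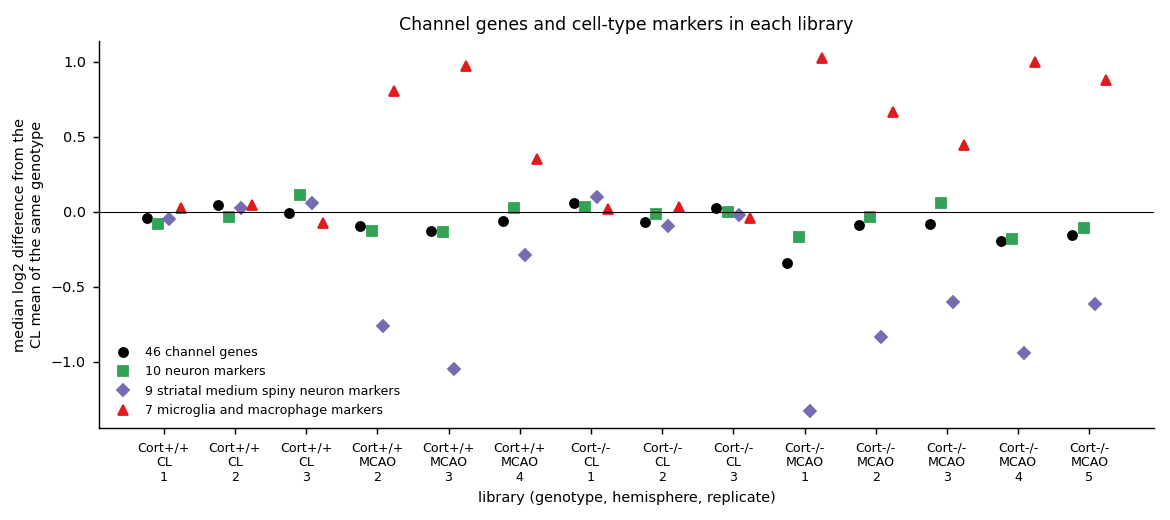
Median log2 difference of each library (x axis: genotype, hemisphere and replicate) from the CL mean of its genotype, for the 46 channel genes (black), neuron markers (green), striatal medium spiny neuron markers (purple) and microglia and macrophage markers (red). In MCAO libraries the channel medians lie between −0.34 and −0.06, while the spiny neuron markers reach −1.33 and the microglia markers are above 0.

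The genotypes were compared within each hemisphere to ask whether cortistatin deficiency goes with another level of channel expression. In CL hemispheres 0 of the 59 channel genes were called, against 0.0152% of all genes, and 2 of the 46 genes averaging 1 RPKM or more had an unadjusted p under 0.05, against 2.94% of all genes at that level. Of these 46, Cort-/- levels exceeded Cort+/+ levels for 31, at a median log2 difference of 0.06 (52.3% of all genes at that level, median 0.0049), and 4 did not overlap between genotypes, against 6.18% of all genes at that level: Kcnd3, Kcnh1, Kcnh3 and Kcns1, all higher in Cort-/- mice. The log2FC of these comparisons is that of Cort-/- over Cort+/+. Kcnh1, of the ether-a-go-go group, had 11.2, 11.98 and 11.1 RPKM in Cort+/+ and 13.7, 12.2 and 13.1 RPKM in Cort-/- CL libraries (log2FC 0.18, unadjusted p = 0.0233, adjusted p = 1). In MCAO libraries it was at 11.99, 11.6 and 11.3 and 10.8, 13.3, 11.6, 11.6 and 11.5 RPKM, where the genotypes overlapped.

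Kcns1, a silent subunit, had 5.46, 4.47 and 5.34 RPKM in Cort+/+ and 5.81, 5.699 and 5.96 RPKM in Cort-/- CL hemispheres (log2FC 0.20, unadjusted p = 0.0313, adjusted p = 1). Its MCAO levels were 5.11, 5.203 and 5.098 and 5.33, 5.499, 5.69, 6.22 and 5.13 RPKM (log2FC 0.11, unadjusted p = 0.145, adjusted p = 1). For Kcnd3, whose values are given above, the difference in CL was 0.15 (unadjusted p = 0.0585).

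In MCAO hemispheres 0 of 59 were called, against 0.0174% of all genes, and 0 had an unadjusted p under 0.05. Among all genes that average 1 RPKM or more, 2.29% had such a p. Of the 46, 31 were lower in Cort-/- mice (median −0.03, against 55.2% of all genes at that level with a median of −0.0094), and only Kcnh6 did not overlap between genotypes, against 2.14% of all genes at that level. Kcnh6, a relative of the heart's erg channel, had 1.27, 1.25 and 1.503 RPKM in Cort+/+ and 1.07, 1.105, 1.24, 1.13 and 1.21 RPKM in Cort-/- MCAO libraries (log2FC −0.20, unadjusted p = 0.133, adjusted p = 1), and 1.72, 1.31 and 1.15 and 1.26, 1.62 and 1.43 RPKM in CL. Cacna2d2 gave 13.8, 13.3 and 16.1 RPKM in Cort+/+ and 11.8, 13.2, 14.3, 9.55 and 13.7 RPKM in Cort-/- MCAO libraries (log2FC −0.21, unadjusted p = 0.0702, adjusted p = 1). In CL it was at 14.96, 15.6 and 15.7 and 15.6, 16.6 and 16.05 RPKM. Its MCAO values overlapped, with Cort-/- replicate 4 the lowest.

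Whether the response to MCAO differs between genotypes was tested as the log2FC in Cort-/- minus that in Cort+/+ mice. No channel gene was called by limma, against 0.00217% of all genes, and 0 of 59 had an unadjusted p under 0.05. Among all genes that average 1 RPKM or more, 1.41% had such a p. The difference was negative for 35 of the 46 channel genes at that level (median −0.09), against 54.9% of all genes (median −0.012). By ion it was negative for 21 of 30 potassium, 3 of 5 sodium and 11 of 11 calcium channel genes. These genes share libraries, and the direction counts were not tested. For Kcnh1, whose values are given above, the difference was −0.17 (95% interval −0.37 to 0.03, unadjusted p = 0.0953, adjusted p = 1), and for Cacna2d2 it was −0.28 (95% interval −0.63 to 0.08, unadjusted p = 0.114, adjusted p = 1).

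For the channel genes called over both genotypes, the difference between the responses was −0.05 for Kcnq3 (95% interval −0.28 to 0.18), −0.03 for Kcnq5 (−0.30 to 0.24), −0.03 for Cacna2d3 (−0.27 to 0.22) and −0.14 for Kcnd2 (−0.38 to 0.10). All of these intervals include 0, and their lower ends reach as far as the averaged responses. The call of Kcnd2 in Cort-/- and not in Cort+/+ mice was therefore not shown to differ between the genotypes.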

How the data were processed

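RNA of ischemic and contralateral hemispheres was sequenced in 14 libraries (Illumina stranded mRNA kit, DNBSEQ). The authors aligned reads to GRCm39 and counted them on GENCODE M28 genes with reanalyzerGSE, and deposited 1 table of RPKM values. The aligner, the scaling of library sizes, the gene lengths and the strand setting of the counting are not given in the sources used here.

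Whole reads were recovered from the RPKM steps, and 100% of 495656 values came out whole (tolerance 0.001). The recovery takes the smallest whole numbers that fit each gene, so a factor shared by all its libraries would be missed. Genes above 0 in 2 or more libraries (46102) were tested as log2(RPKM + 0.1), so that fold changes of low genes are understated, in 1 limma model of the 4 groups (R 4.3.3, limma 3.58.1, moderated with trend), with Benjamini-Hochberg adjustment over all genes tested and a threshold of 0.05. The comparisons were MCAO against CL in each genotype and averaged over both, Cort-/- against Cort+/+ in each hemisphere, and the difference of responses. Intervals are 95% intervals of the fitted log2FC. The procedure was tested on simulated data. Positions and coding sequences came from GENCODE M39 (GRCm39).

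Channel genes named with every library's value were the called ones, the most abundant of each family and those of lowest p for each comparison, and others were named after their values were seen. Some channel genes are counted and tested but not reported here by name. The members and all gene lists were chosen with earlier results of these data known. Alternatives changed the pseudocount, low-value filter, scaling, library weights, samples in the model and replicate block, or left out 1 library. Voom on recovered reads was added after seeing the data. P-values set each difference against 1 moderated spread between libraries within groups, estimated over all 4 groups together. The depth of 25989676 to 43032300 reads a library limits what can be seen in genes with a few reads.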

Additional observations from a re-analysis of the deposited data

Results flagged for a closer look

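For 5 of the 54 channel genes reported here, 1 of the 5 Cort-/- MCAO libraries lay apart from the others, with a gap to its nearest neighbour above 0.71 of the group's range. The other groups held 3 libraries and were not examined in this way, and chance alone flags about 1 in 20 groups. Replicate 1 was low for abundant neuronal channels, with Kcna2 at 25.7 RPKM (group median 30.6) and Scn8a at 27.2 RPKM (median 32.6). The same library had the lowest median over the 46 channel genes and over the striatal medium spiny neuron markers. Replicate 4 was high for Scn10a, at 0.61 RPKM (median 0.233). Replicate 5 was high for Kcnd1, at 2.75 RPKM (median 2.62), a gap that is small in RPKM because the other libraries lay close together. Kcnv2 was at 0.00451 RPKM in replicate 2 (median 0.0141), where no library had more than 3 reads. No channel gene had a tested difference between the genotypes in its response to MCAO.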

How the results depend on the processing

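In Cort+/+ mice, between genotypes in either hemisphere and for the difference between responses, 0 channel genes were called under each alternative that could be run. In Cort-/- mice the count of 1 went to 0 with TPM rescaling, median ratio scaling, quantile normalization, a pseudocount of 1 or only the groups compared, and to 3 with library weights, 4 with a filter at a mean of 0.5 RPKM and 5 with voom on recovered reads. Without 1 library it ranged from 0 to 3, with 3 only without Cort-/- MCAO replicate 3 (Cacna1e, Kcnd2 and Kcnq3). Averaged over genotypes the count of 4 went to 1 with TPM rescaling (Kcnq3) and to 7 with voom, which added Cacna1e, Kcna2 and Kcnh4, was 3 to 6 under the other settings, and ranged from 1 to 6 without 1 library. It was 1 without Cort-/- CL replicate 1, Cort+/+ CL 2, Cort+/+ MCAO 2 or Cort+/+ MCAO 3, and 2 without Cort-/- CL 3 or Cort+/+ CL 3. Kcnq3 was called over both genotypes in 23 of 23 alternatives, Cacna2d3 in 17, Kcnd2 in 16 and Kcnq5 in 12. The cause of these changes was not tested.

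Deviations of same-numbered CL and MCAO libraries had correlations from −0.239 to 0.316, within the range of the other pairings (−0.316 to 0.404). The numbers were therefore not taken as pairs, but groups of this size cannot show that the hemispheres were unpaired. The replicate block left counts of 1 in Cort-/- mice, 4 over both genotypes and 0 in the other comparisons. Of 775 recomputed differences of single genes 2 changed sign, both without a call: Cacna1g over both genotypes, at 0.0058 without Cort-/- CL replicate 3 and down to −0.094 without Cort-/- CL replicate 2, and Kcnv1, at 0.017 without Cort+/+ CL replicate 3 and down to −0.20 without Cort+/+ CL replicate 1.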
